A study of Drosophila melanogaster with 2 samples.

Results

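The vacuolar ATPase (V-ATPase) subunit genes of Drosophila melanogaster were examined for binding of the HMG-box protein encoded by bbx (bobby sox), as mapped by chromatin immunoprecipitation with sequencing (ChIP-seq). The members were chosen by name as all protein-coding genes of the Ensembl annotation whose symbol starts with Vha. This gave 33 of 13968 protein-coding genes, of which 18 encode subunits of the V0 sector, 13 encode subunits of the V1 sector and 2, VhaAC45 and VhaAC45RP, are accessory Ac45 genes. All samples came from whole embryos aged 0 to 24 h of the bbx-GFP strain, whose transgene produces a bbx-eGFP fusion, and an antibody to GFP was used. There were 2 biological replicates of this 1 group, and no untagged sample was used here. Collections of this age mix all embryonic stages and cell types, so strong binding in few cells and weak binding in many cannot be told apart. Read totals were not given, so the depth of each replicate is unknown.

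The V-ATPase is a rotary proton pump that acidifies lysosomes, endosomes and secretory vesicles, and in some insect epithelia it sits in the plasma membrane and energises ion transport. The peripheral V1 sector hydrolyses ATP and turns a central stalk. The stalk drives a ring of proteolipid subunits in the membrane-embedded V0 sector, which carries protons across. In the fly, several subunits are encoded by families of paralogs. For each subunit 1 paralog belongs to a set known for enriched expression in epithelia, and a number of the other paralogs are known for expression limited to few tissues, such as the testis.

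A gene counted as occupied when the summit of a peak of the authors' conservative reproducible set lay within 500 bp of 1 of its transcription start sites (TSSs). By this rule 14 of the 33 Vha genes (42.4%) were occupied, and 19 were not. Among all protein-coding genes 4304 (30.8%) were occupied. Both sectors were represented, with 7 of 18 V0 genes (38.9%) and 7 of 13 V1 genes (53.8%), while neither Ac45 gene had a summit. Of the 13 genes of the epithelial set 9 (69.2%) were occupied, against 5 of the 18 other V0 and V1 paralogs (27.8%). These groups are not matched. The epithelial set includes the genes of the 5 subunits that have 1 gene, Vha13, Vha26, Vha44, VhaSFD and Vha55, of which only Vha55 was unoccupied. Among the 8 V0 and V1 subunits with more than 1 gene, the epithelial gene was occupied at all but F, c'' and d. Genes of the epithelial set also had more TSSs, 1.69 on average against 1.17 at the other paralogs. The V0 count and that of the other paralogs rest on both replicates together. In either replicate alone 4 of 18 V0 genes (22.2%) were occupied. The share of all protein-coding genes was higher in replicate 1 alone (30.6%) and about the same in replicate 2 alone (23.7%). Of the other paralogs 2 of 18 (11.1%) were occupied in either replicate alone, while the epithelial set had 8 of 13 (61.5%) in replicate 1 and 9 of 13 (69.2%) in replicate 2. The list of 13 was assigned from earlier knowledge of fly V-ATPase genes, but when earlier results of these data were known. These shares are descriptions, since genes are not replicates, and the difference between them was not tested.

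**Figure D1:**
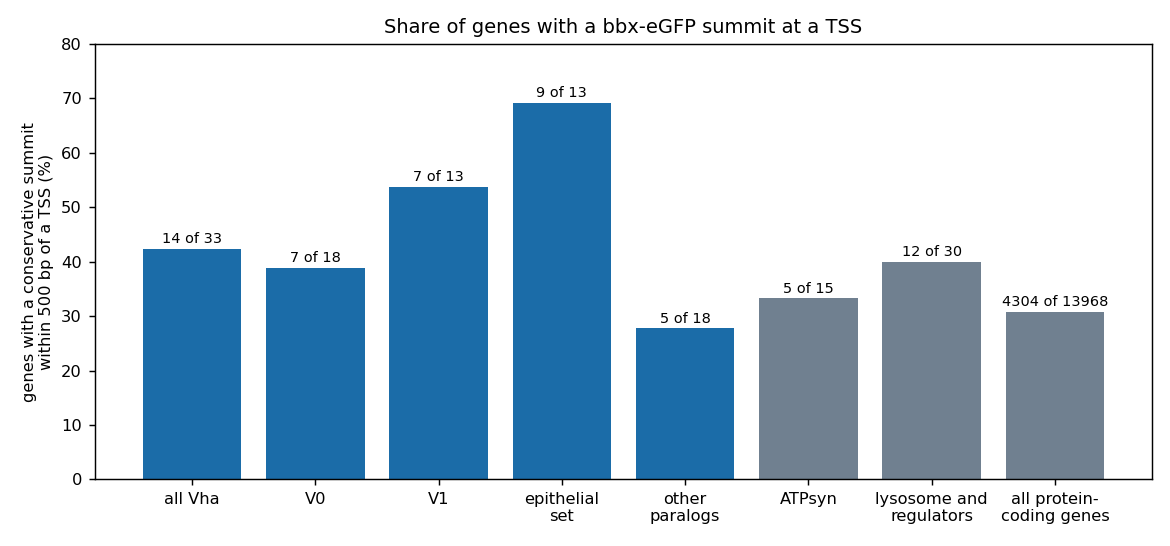
Bars give the percentage of genes with a conservative bbx-eGFP summit within 500 bp of a TSS, with the count of genes above each bar. The epithelial set, which includes all subunits encoded by 1 gene, reached 69.2% and the other paralogs 27.8%, while all protein-coding genes stood at 30.8%. The ATPsyn genes of mitochondrial ATP synthase and a list of lysosomal and regulator genes are shown beside them; in either replicate alone, not drawn, the other paralogs reached 11.1%.

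The sequence under some of the summits is shown next, on the strand of the gene and on dm6, as held in the RefSeq assembly. Vha16-5 (chr2L:10737238-10737364), Vha13 (chr3R:19644367-19644541) and Vha68-1 (chr2L:13004088-13004261) had the highest pooled signals among the members whose sequence is printed. Vha68-2 (chr2L:12974148-12974341) and Vha68-3 (chr2L:12978686-12978806) are the other paralogs of Vha68-1, and VhaSFD (chr2L:16727807-16727943) was the only member with the complete DNA replication-related element (DRE, TATCGATA) at its summit; these 3 were added after their values were seen. Each stretch reaches up to 100 bp to either side of the strongest summit, or of the TSS at Vha68-3, which had no peak, and was shortened where it ran more than 20 bp into an annotated UTR. Capitals mark the pentamer CGATA, part of the DRE and known as the recognition sequence of the boundary protein BEAF-32, on either strand.
Vha16-5: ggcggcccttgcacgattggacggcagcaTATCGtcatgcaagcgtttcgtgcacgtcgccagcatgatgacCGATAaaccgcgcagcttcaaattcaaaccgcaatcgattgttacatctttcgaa
Vha13: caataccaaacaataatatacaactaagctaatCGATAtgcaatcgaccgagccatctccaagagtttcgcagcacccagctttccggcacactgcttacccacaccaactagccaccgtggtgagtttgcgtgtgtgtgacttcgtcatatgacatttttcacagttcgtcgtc
Vha68-1: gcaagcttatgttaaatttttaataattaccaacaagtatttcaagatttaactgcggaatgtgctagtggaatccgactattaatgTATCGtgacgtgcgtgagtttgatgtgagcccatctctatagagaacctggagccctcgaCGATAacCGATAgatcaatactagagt
Vha68-2: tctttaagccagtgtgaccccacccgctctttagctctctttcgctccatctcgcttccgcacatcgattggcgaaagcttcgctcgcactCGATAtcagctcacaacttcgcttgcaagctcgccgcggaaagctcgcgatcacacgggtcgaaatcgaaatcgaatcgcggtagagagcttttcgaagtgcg
Vha68-3: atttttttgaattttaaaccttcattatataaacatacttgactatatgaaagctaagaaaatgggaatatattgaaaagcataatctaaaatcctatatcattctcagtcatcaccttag
VhaSFD: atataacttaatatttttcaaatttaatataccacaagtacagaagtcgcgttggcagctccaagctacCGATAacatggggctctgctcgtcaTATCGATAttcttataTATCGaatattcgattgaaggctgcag
In these stretches the GC content was 54.6% at Vha68-2, 39.1% at Vha68-1 and 24.8% at Vha68-3, the paralog without a peak. The 3 stretches are not matched: they hold 194, 174 and 121 bp, and that of Vha68-3 is centred on the TSS. It holds no copy of CGATA, but the wider promoter window of Vha68-3, described below, does. The VhaSFD stretch holds the DRE and further copies of CGATA on both strands, and that of Vha68-1 holds 3 copies of the pentamer.

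The values given next are the authors' signals for the strongest summit of each gene. The pooled signal comes from the reads of both replicates together, and the replicate signals come from each replicate's own ranked list, where the strongest summit within 500 bp of a TSS was taken. Over the 14 occupied Vha genes the median pooled signal was 145.6 (58.0 to 280.5), and over all 4304 occupied protein-coding genes it was 133.3. The order of the medians was not stable where the occupied genes were called anew under another rule. Over the genes called in replicate 1 alone they were 99.0 for Vha genes and 78.0 for all genes. In replicate 2 alone they were 63.6 and 76.2. At an irreproducible discovery rate (IDR, a measure of how well peak ranks match between replicates) of at most 0.001 they were 155.7 and 188.0. With the genes kept fixed, the 14 Vha genes and 4291 of the 4304 genes had nearly equal medians. These were 78.5 and 76.4 in replicate 1, and 58.0 and 58.5 in replicate 2. In the conservative set the V0 genes spanned the whole range of 58.0 to 280.5 with a median of 121.6, while the V1 genes lay between 96.5 and 182.6 with a median of 150.1.

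**Figure D2:**
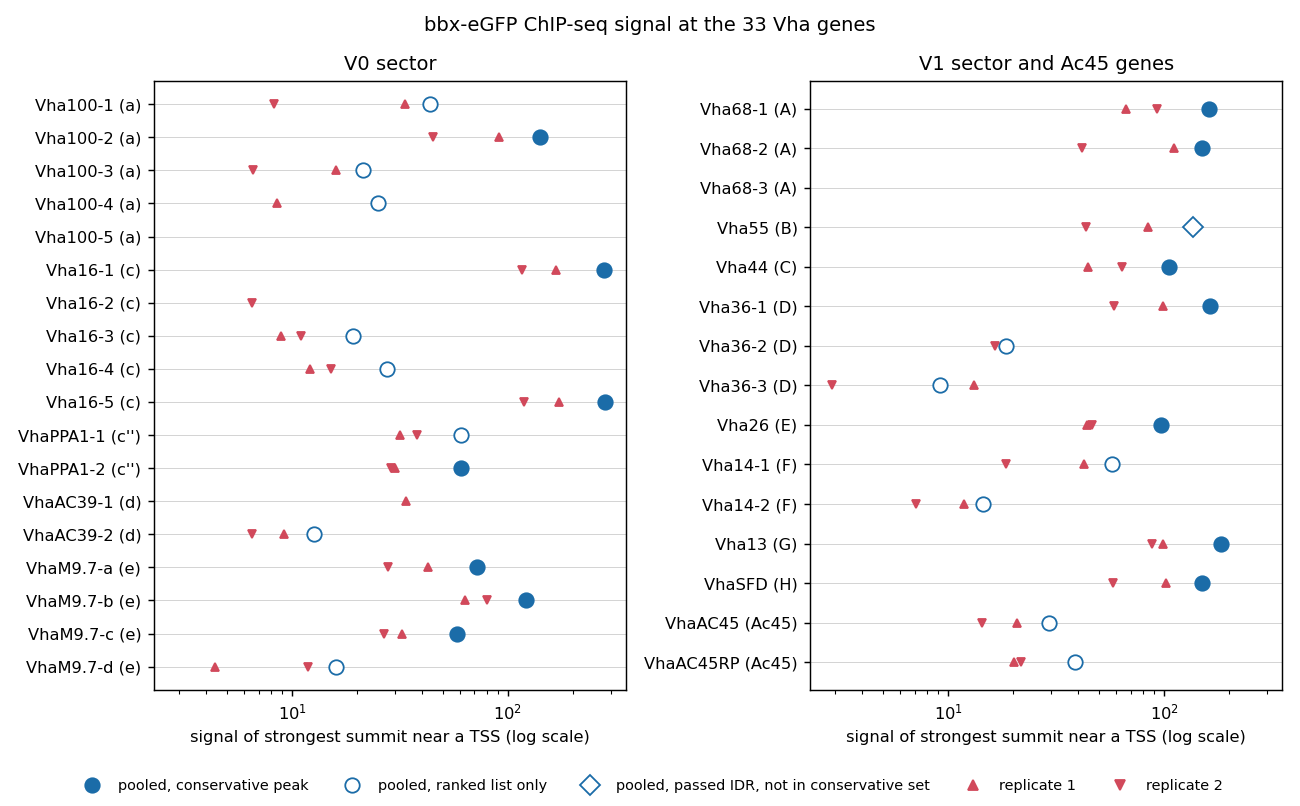
Each row is 1 of the 33 Vha genes with its subunit in brackets, and the x axis gives the signal of its strongest summit within 500 bp of a TSS on a log scale. Filled circles are pooled values of conservative peaks, open circles pooled values found in the ranked list alone, the diamond is Vha55, and triangles are replicates 1 and 2; occupied genes lie between 58.0 and 280.5, and rows with no blue symbol had no ranked pooled peak.

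The V1 sector was occupied at most of its subunits. Of its 8 subunits, 6 had at least 1 occupied gene in the conservative set, and the exceptions were B and F. Subunit A, which carries the catalytic ATP-binding sites, is encoded by 3 paralogs. Vha68-2, the epithelial one, had a pooled signal of 150.1, with 110.8 in replicate 1 and 41.4 in replicate 2 (76.1 ± 49.0, SD, n = 2). Vha68-1 had 161.2, with 66.4 and 92.8 in replicates 1 and 2 (79.6 ± 18.7, SD, n = 2). The replicates ordered the 2 genes differently, so their signals were not distinguishable. Vha68-3 had no summit within 500 bp in the ranked list of the pooled reads or in that of either replicate. Its TSS lies 179 bp past the annotated end of Vha68-2, whose own summit lay at the far end of that gene, -74 bp from its TSS.

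Most other V1 subunits are encoded by 1 gene, and D and F by families. Subunit D forms the central rotor shaft, and its epithelial gene Vha36-1 had a pooled signal of 162.8 (99.0 in replicate 1 and 58.3 in replicate 2; 78.6 ± 28.8, SD, n = 2). Vha36-2 and Vha36-3 were unoccupied, with ranked summits of 18.5 and 9.19. Vha13 encodes subunit G of the peripheral stalks and had the highest signal of the sector, 182.6, with close replicates (99.0 and 87.4; 93.2 ± 8.16, SD, n = 2). Its partner in those stalks, subunit E, is encoded by Vha26, which had the lowest signal of the occupied V1 genes at 96.5 (43.7 and 46.4; 45.1 ± 1.93, SD, n = 2). Vha44, for the C subunit that joins the stalks to V0, had 105.0 (44.4 and 63.6; 54.0 ± 13.6, SD, n = 2). VhaSFD, for the regulatory H subunit, had 149.8 (101.4 and 57.8; 79.6 ± 30.9, SD, n = 2). Subunit F, a second part of the rotor, had no occupied gene: Vha14-1 reached 57.3 in the ranked list and Vha14-2 reached 14.5. At Vha14-1 the strongest summits of the replicates lay apart, at -16 bp (42.5) in replicate 1 and at 419 bp (18.4) in replicate 2.

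Vha55, the only gene for the nucleotide-binding B subunit, was unoccupied by the rule but had a strong peak. Its ranked peak (3R, summit at 12627829, exactly on a TSS) had a pooled signal of 135.7, with 84.2 in replicate 1 and 43.6 in replicate 2 (63.9 ± 28.7, SD, n = 2). That is within the range of the occupied V1 genes. The conservative set holds peaks with an IDR of at most 0.01, a -log10 IDR of at least 2. The Vha55 peak had a -log10 IDR of 3.49 and yet was not in that set. On the chromosomes used, 165 of 4918 ranked peaks that met the threshold (3.36%) were likewise not in it. They would have made 96 further protein-coding genes occupied, which brings the share of all such genes to 31.5%. With them 15 of 33 Vha genes, 8 of 13 V1 genes and 10 of 13 genes of the epithelial set had a summit. In making the thresholded lists the authors also used 1 file that the sources used here do not explain.

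In the V0 sector the occupied genes were spread over 4 of its 5 subunits, usually at 1 or 2 members of a family. Subunit a holds the half-channels through which protons enter and leave the ring. Among its 5 genes only Vha100-2 was occupied, with a pooled signal of 141.5 (90.5 in replicate 1 and 44.8 in replicate 2; 67.7 ± 32.3, SD, n = 2). Vha100-1, the paralog known from neuronal synapses, reached 43.5 in the ranked list, with 33.5 and 8.27 in the replicates. Those replicate values come from different summits, at -398 bp in replicate 1 and 13 bp in replicate 2. Vha100-3 reached 21.3, Vha100-4, known for the acid-secreting midgut, reached 24.9, and Vha100-5 had no ranked summit in any list.

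The c subunits form the proton-carrying ring, and their genes had the highest and some of the lowest values of the family. Vha16-1, the broadly used gene, had a pooled signal of 277.3 (166.4 and 116.0; 141.2 ± 35.6, SD, n = 2), at percentile 81.0 of all occupied protein-coding genes, and a second summit of 77.5. Vha16-5 had 280.5 (172.7 and 118.9; 145.8 ± 38.0, SD, n = 2), at percentile 81.4. The 2 genes differed by far less than their replicates did. The Vha16-5 summit lay -295 bp from its TSS but -7 bp from that of CG12299. Vha16-5 had no summit within 200 bp or when each summit was given only to the nearest gene. Vha16-3 and Vha16-4 had ranked summits of 19.1 and 27.5, and Vha16-2 had none in the pooled list and 1 of 6.55 in replicate 2.

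For the related ring subunit c'' VhaPPA1-2 was occupied and VhaPPA1-1, the gene of the epithelial set, was not. These calls were not stable: VhaPPA1-2 had no summit in either replicate alone, at an IDR of at most 0.001 or within 200 bp, and VhaPPA1-1 had one in the other thresholded set. Their pooled signals were nearly equal, 60.9 at VhaPPA1-2 and 60.3 at VhaPPA1-1. VhaPPA1-2 had 30.0 and 28.8 in replicates 1 and 2 (29.4 ± 0.845, SD, n = 2), with summits at 275 and 216 bp. VhaPPA1-1 had 31.7 and 38.0 (34.8 ± 4.48, SD, n = 2), with summits at -143 and 84 bp on either side of its TSS. The -log10 IDR values were 2.09 and 0.629 at VhaPPA1-2 and VhaPPA1-1, which put them on opposite sides of the threshold. With VhaM9.7-c (58.0; -log10 IDR of 2.06), VhaPPA1-2 was the member just inside the threshold, and VhaAC45RP (38.6; 1.08) and VhaPPA1-1 were the nearest below it.

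Subunit e, a small membrane protein, had 3 of its 4 genes occupied in the conservative set, but only VhaM9.7-b in either replicate alone or at an IDR of at most 0.001. VhaM9.7-b, the epithelial gene, had a pooled signal of 121.6 (63.0 and 79.9; 71.4 ± 11.9, SD, n = 2). Those replicate values come from different summits, at 83 bp in replicate 1 and -401 bp in replicate 2. Their SD is therefore not a spread at 1 site. VhaM9.7-a had 72.0 (42.7 and 27.9; 35.3 ± 10.5, SD, n = 2) and VhaM9.7-c had 58.0 (32.4 and 26.6; 29.5 ± 4.11, SD, n = 2). There too the summits of replicates 1 and 2 lay apart, at -15 and 138 bp for VhaM9.7-a and at 0 and 181 bp for VhaM9.7-c. VhaM9.7-d was unoccupied with a ranked summit of 16.0. Subunit d, which couples the rotor to the ring, had none: VhaAC39-2 reached 12.7 in the ranked list, and VhaAC39-1, the epithelial gene, had no pooled ranked summit and a peak of 33.7 in replicate 1 alone. Of the Ac45 genes, whose vertebrate relative is an accessory subunit, VhaAC45 reached 29.3 and VhaAC45RP 38.6.

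The ranked list is long, so a summit in it carries little weight. It held 103632 peaks genome-wide. Of the 19 unoccupied Vha genes, 15 had a ranked summit within 500 bp of a TSS, as had 65.4% of all unoccupied protein-coding genes. Their median signal was 24.9 (9.19 to 135.7, the highest being Vha55), against 31.8 over the 6320 unoccupied protein-coding genes with such a summit. With the series' other ranked list 15 of 19 had one (68.9% of all unoccupied genes), within 200 bp 11 had one (47.2%), and within 1000 bp 17 had one (72.7%).

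The strongest summits of the occupied V1 genes lay nearer to the TSS than those of the occupied V0 genes. At all 7 occupied V1 genes the strongest summit lay upstream of the TSS, from -113 bp at Vha44 to -7 bp at Vha36-1, with a median distance of 55.0 bp. At the 7 occupied V0 genes it lay between -379 bp at VhaM9.7-b and 248 bp at VhaPPA1-2, with a median distance of 171 bp. Within 200 bp of the TSS the strongest summit was found at 4 of the 7 V0 genes and 7 of the 7 V1 genes, and at 82.6% of all occupied protein-coding genes, whose median distance was 53.0 bp. Summits past the TSS, inside the gene, were those of Vha100-2 (44 bp), VhaM9.7-c (171 bp) and VhaPPA1-2. The V0 summits farthest from the TSS have limits. Those of VhaM9.7-b and Vha16-5 (-295 bp) lay nearer to a neighbour's TSS, -36 bp from COX8 and -7 bp from CG12299. In V1 the same held for Vha44, whose summit lay -10 bp from Hmgs. VhaM9.7-b also had a second summit at 91 bp. VhaPPA1-2 and VhaM9.7-c passed in neither replicate alone. The difference between the sectors was not tested.

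**Figure D3:**
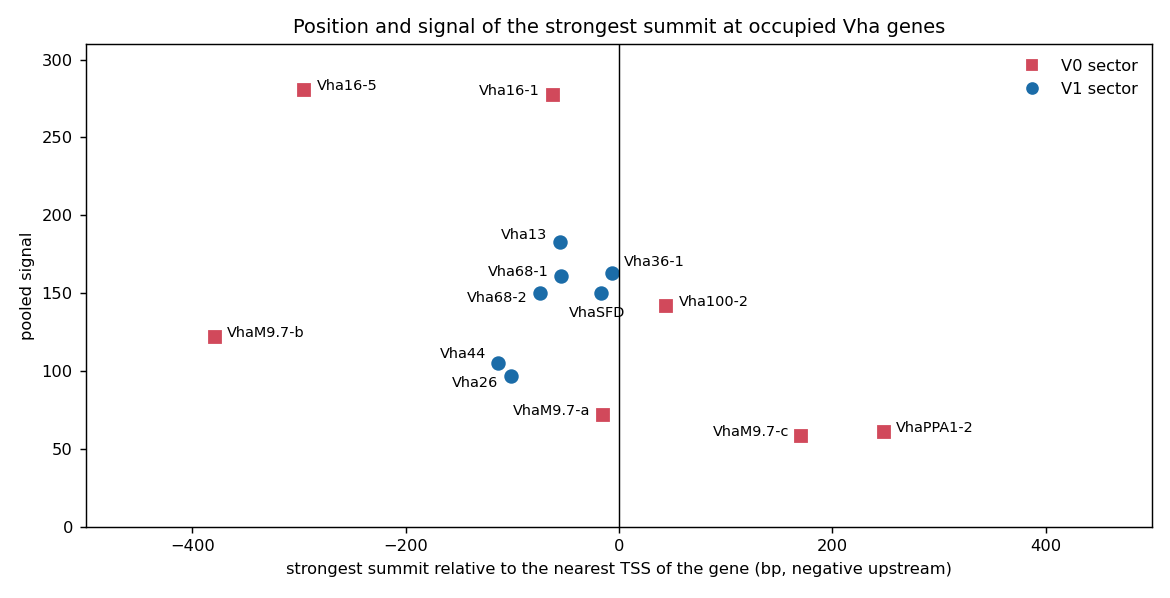
The x axis gives the distance in bp from the nearest TSS of the gene to its strongest conservative summit, negative upstream, and the y axis the pooled signal. The 7 V1 genes (circles) cluster between -113 and -7 bp, while the 7 V0 genes (squares) range from -379 to 248 bp.

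The V0 peaks were at chr3R:18398947-18399302 (Vha100-2), chr2R:6633041-6633229 (Vha16-1), chr2L:10737209-10737406 (Vha16-5), chr3R:14899851-14900206 (VhaPPA1-2), chr3L:4262512-4262867 (VhaM9.7-a), chr3L:21539394-21539535 (VhaM9.7-b) and chr3L:4186516-4186871 (VhaM9.7-c), on dm6. The V1 peaks were at chr2L:13003983-13004338 (Vha68-1), chr2L:12974070-12974425 (Vha68-2), chr2R:16336572-16336927 (Vha44), chr2R:15541250-15541605 (Vha36-1), chr3R:5591484-5591839 (Vha26), chr3R:19644391-19644513 (Vha13) and chr2L:16727665-16728020 (VhaSFD).

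Several summits lay near the TSSs of a pair of genes. At 7 of the 14 occupied members the summit also lay within 500 bp of the TSS of another protein-coding gene on the other strand. At 3 of these the neighbour's TSS was the nearer one. The matching shares over all occupied genes were not computed, so these counts only describe the members. Shared summits were not particular to Vha genes, since the 4304 occupied protein-coding genes had only 3721 promoter summits. The Vha16-5 summit lay -295 bp from Vha16-5 and -7 bp from CG12299. That of Vha44 lay -113 bp from Vha44 and -10 bp from Hmgs, which encodes an enzyme of the mevalonate pathway. That of VhaM9.7-b lay -379 bp from its TSS and -36 bp from COX8, for a subunit of cytochrome c oxidase, but VhaM9.7-b also had a second summit of 103.4 at 91 bp. The Vha gene was nearer in the pairs of Vha68-1 and mTor (-54 and -319 bp), Vha26 and the splicing factor gene noi (-101 and -203 bp), Vha36-1 and CG8187 (-7 and -65 bp), and VhaM9.7-a and CG11586 (-15 and -220 bp). mTor encodes the kinase of TORC1, a complex that is activated at the lysosome surface. With each summit given only to the nearest gene, Vha16-5 and Vha44 lost theirs and 12 of 33 Vha genes kept one, against 24.3% of all protein-coding genes.

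**Figure D4:**
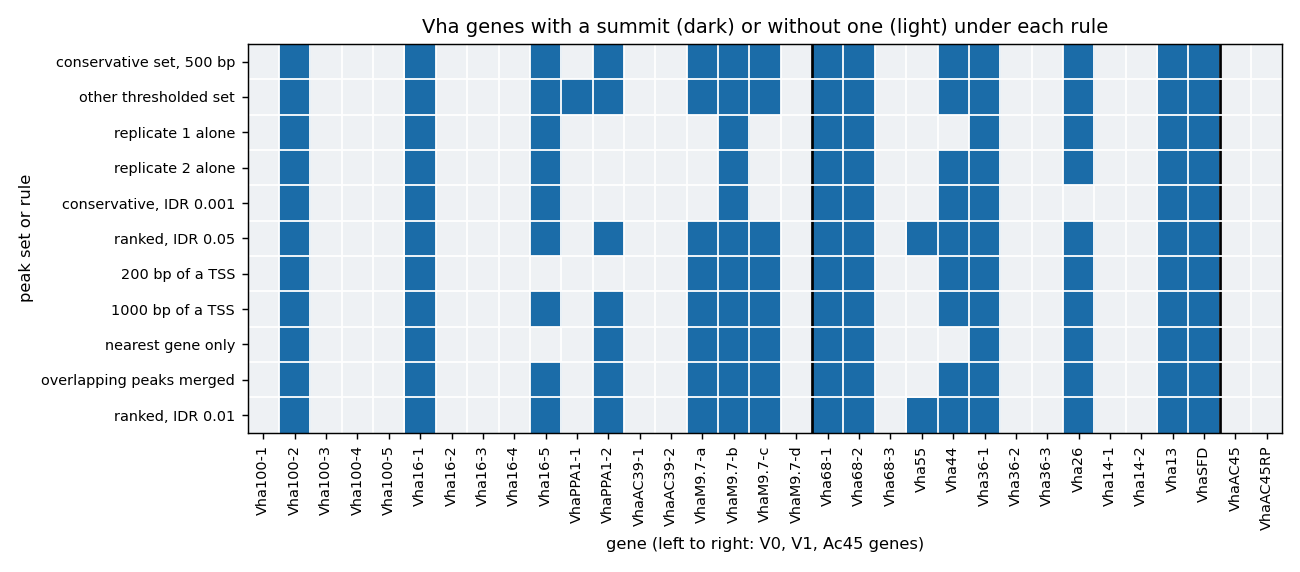
Columns are the 33 Vha genes, grouped by sector from left to right (V0, V1, Ac45), and rows are the peak sets and rules, the first being the one used throughout. Dark cells mark a summit; 8 genes are dark and 17 light in every row, and the 8 others change.

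Which genes counted as occupied was the same for most members under the 10 other peak sets and rules. Vha100-2, Vha16-1, VhaM9.7-b, Vha68-1, Vha68-2, Vha36-1, Vha13 and VhaSFD had a summit under each of them, and 17 of the 19 unoccupied genes had none under any. The call changed at the other 8: Vha16-5, VhaPPA1-1, VhaPPA1-2, VhaM9.7-a, VhaM9.7-c, Vha26, Vha44 and Vha55. The count was 15 of 33 in the series' other thresholded set, which adds VhaPPA1-1, where 34.6% of all protein-coding genes were occupied. It was 10 in replicate 1 alone (30.6% of all) and 11 in replicate 2 alone (23.7%), since VhaPPA1-2, VhaM9.7-a and VhaM9.7-c passed in neither replicate on its own and Vha44 not in replicate 1. At an IDR of at most 0.001 it was 10 (21.4%), and among ranked peaks at 0.05 it was 15 (37.3%). Within 200 bp it was 12 (26.4%), within 1000 bp 14 (33.6%), and with overlapping peaks merged 14 (30.8%).

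The replicates were compared at the strongest summit of each gene, which was not always the same summit in both, as at VhaM9.7-b. Replicate 1 was higher at 10 of the 14 occupied Vha genes, with medians of 78.5 in replicate 1 and 58.0 in replicate 2. Over all occupied protein-coding genes the medians were 76.4 and 58.5, and replicate 1 was higher at 3386 of 4291. The larger replicate value was 1.43 times the smaller one at the median occupied Vha gene (1.04 at VhaPPA1-2 to 2.67 at Vha68-2), and 1.33 times at the median occupied protein-coding gene. That ratio includes a shift common to most genes, replicate 1 being the higher, and at some genes it compares different summits. It therefore does not give the spread of differences between members.

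The letters around the summits were searched for 8 motifs on both strands, within 100 bp to either side of the strongest summit of each occupied member. CGATA was found at 12 of 14 members (85.7%) and at 63.8% of all 3721 promoter summits of protein-coding genes. The exceptions were VhaPPA1-2 and VhaM9.7-c, which had the lowest signals of the occupied members. The full DRE, which contains CGATA on each strand, was found only at VhaSFD (7.14%, against 21.2% of promoter summits). There it lay at -2 bp from the summit. The E-box CACGTG was found at Vha44 alone (4% of promoter summits), where it was part of the longer form TCACGTGA, held by 6 of the 3721 promoter summits (0.161%). In flies and mammals, E-boxes of this kind are known as sites of the Mitf and TFEB family, regulators of lysosomal genes. Within 200 bp Vha16-1 also held the longer form, as did 11 promoter summits in all, and an E-box lay 59 bp from the ranked summit of Vha55. CAGCTG was found at 3 members and 17.7% of promoter summits, GAGAG at 3 and 24.1%, and ACAAT, a core of HMG-box sites, at 9 (64.3%) and 43.3%. That difference was present only in this window: within 50 bp ACAAT was found at 3 members (21.4%) and 22.3% of promoter summits, and within 200 bp at 9 (64.3%) and 68.6%. For CGATA the shares were 64.3% of members and 54% of promoter summits within 50 bp, and 85.7% and 73.8% within 200 bp. TTCATTGA, known as a site of mouse Bbx, was found at no member and 0.699% of promoter summits.

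**Figure D5:**
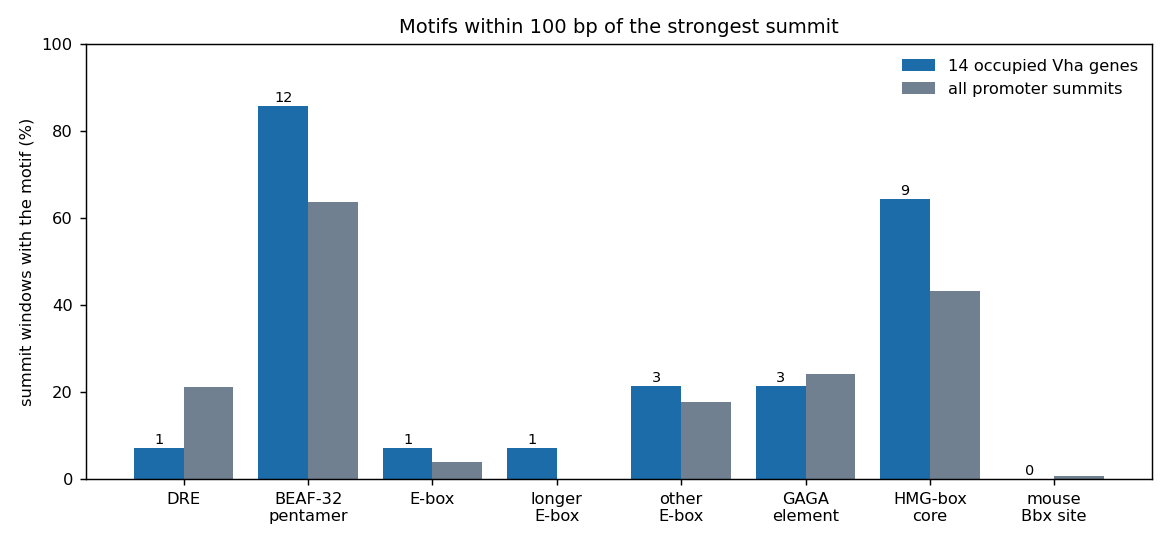
Bars give the percentage of windows of 100 bp to either side of the strongest summit that hold each motif, for the 14 occupied Vha genes (left bars, with counts) and for all promoter summits of protein-coding genes (right bars). The pentamer read by BEAF-32 was found at 12 members (85.7%), against 63.8% of all promoter summits.

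In fixed promoter windows, from 250 bp before to 50 bp after the first TSS, CGATA was found at 12 of the 14 occupied Vha genes and at 7 of the 19 unoccupied ones. Those 7 were Vha100-4, Vha100-5, Vha14-2, Vha55, Vha68-3, VhaM9.7-d and VhaPPA1-1. Of the promoters of all occupied protein-coding genes 70.4% held it, and of all protein-coding promoters 47.3%. The DRE was found in the promoters of VhaSFD and Vha55, as in 9.36% of all promoters. CACGTG was found in the promoters of 1 occupied member, Vha44, and of 2 unoccupied ones, VhaAC45RP and VhaM9.7-d, as in 4.2% of all promoters. ACAAT was found at 8 of 14 occupied and 9 of 19 unoccupied members, and in 61.3% of all promoters.

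Other genes of the pathway and a related machine are given for comparison. Of 30 genes for V-ATPase regulators and lysosomal proteins, 12 (40%) were occupied, against 30.8% of all protein-coding genes. The strongest were spin (787.9), for a lysosomal transporter, ClC-c (300.9), of the chloride channel family, and ATP6AP2 (262.9), an accessory subunit formerly named VhaM8.9 that the rule on symbols did not take. Rbcn-3A, for a part of the complex that assembles the V-ATPase, had 186.5, while Rbcn-3B had no summit, nor had ClC-b or Cln3. Of the 15 ATPsyn genes, which encode the mitochondrial rotary ATPase and its variants, 5 (33.3%) were occupied, close to the 30.8% of all protein-coding genes. The strongest were ATPsynCF6 (476.6), ATPsynF (368.5) and ATPsyngamma (195.8), and ATPsynC and ATPsynCF6L had no summit. ATPsynC, for the membrane ring of the mitochondrial ATPase, had a ranked peak of 103.3 that met the IDR threshold but was not in the conservative set, as at Vha55.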

How the data were processed

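ChIP-seq peak lists on dm6 were used. Peaks had been called with a control and compared between replicates by IDR, per the deposited text files. The sources used here name neither peak caller nor aligner. Signal values are as deposited by the authors, on a scale those sources do not explain, and the ranked lists carry the authors' -log10 of the IDR. Pooled values came from the conservative set and the ranked list of the replicate comparison, and replicate values from each replicate's own ranked list. Depth per sample is unknown.

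Genes and TSSs came from Ensembl release 115 and letters from the RefSeq dm6 assembly, on 2L, 2R, 3L, 3R, 4, X and Y. All peak ends lay within its chromosome lengths. Older symbols of the lysosome list were matched through RefSeq synonyms (1 of 30, Cp1 to CtsL1). No test was made, since there is 1 group and genes are not replicates; counts stand beside those of all protein-coding genes. Every member is named, as are of each comparison list the 3 strongest occupied genes and the first 2 without a summit, in alphabetical order; Rbcn-3A, Rbcn-3B and ATPsynC were added after their values were seen. Members, lists, motifs and alternatives were chosen with earlier results of these data known. Peak assignment, merging and motif search were tested on simulated data. Python 3.11.15 and Matplotlib 3.10.9 were used.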

Additional observations from a re-analysis of the deposited data

How the results depend on the processing

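Counts of Vha genes, V1 genes, the epithelial set and the lysosome list stayed within 1.5 times their values under all 10 alternatives. The V0 count was 7 and fell to 4 (22.2%) in either replicate alone and at the IDR limit of 0.001. The count of other paralogs was 5, against 2 (11.1%) in each replicate alone and at that IDR, and 3 within 200 bp of a TSS. The share of all protein-coding genes moved too, from 30.8% to 30.6% and 23.7% in replicates 1 and 2 alone. It was 21.4% at that IDR and 26.4% within 200 bp. ATPsyn genes numbered 5 (33.3%), against 8 (53.3%) among ranked peaks at an IDR of at most 0.05, where all genes had 37.3%. With each summit given only to its nearest gene they numbered 3 (20%), and all genes had 24.3%. The median signal of the occupied Vha genes was 145.6, against 99.0 in replicate 1 alone and 63.6 in replicate 2 alone. All occupied genes had 78.0 and 76.2 there. These medians are not like for like: they cover 14, 10 and 11 Vha genes, and the pooled signal uses the reads of both replicates. What lowered them was not tested. With 50 bp to either side of a summit the members with a motif numbered 0 for CACGTG (2.04% of promoter summits), 0 for TCACGTGA (0.107%), 1 (7.14%) for CAGCTG (10.3%) and 3 (21.4%) for ACAAT (22.3%), and with 200 bp they numbered 2 for CACGTG (6.83%) and 2 for TCACGTGA (0.296%); a narrower window holds fewer letters. The alternative of ranked peaks at an IDR of at most 0.01 was chosen after the data were seen. No paired analysis was possible because there is only 1 group. The unknown depth limits what can be said of genes without a summit: binding was not detected there, not shown to be absent.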

Other observations

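Peaks that met the IDR threshold of 0.01 but were not in the conservative set lay unevenly over the chromosomes. On 3R, which holds Vha55 and ATPsynC, 104 of 1193 such ranked peaks (8.72%) were not in the set, on 2L 43 of 906 (4.75%), and on X 4 of 810 (0.494%).

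Away from the TSSs, 2 conservative summits lay inside Vha genes, both in a 3' UTR. The one in Vha13 (3R, 19643157) had a pooled signal of 265.2, above the 182.6 of the summit at the gene's TSS, and lay -435 bp from the TSS of subdued. The one in VhaSFD (2L, 16722891) had 73.7 and lay 880 bp past the TSS of Cyt-c-p.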
